A study of Mus musculus with 18 samples.

Results

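Glutathione and the thioredoxin system are the main thiol buffers of a T cell. Here 10 genes of these systems and of other antioxidant functions were followed in CD4+ effector T cells. The rule names the genes by their function and uses no measured level, although earlier results of these data were known when it was written. They are Gclc and Gclm (glutathione synthesis), Gsr and Txnrd1 (recycling), Cat and Gpx4 (peroxide removal), Hmox1 (haem breakdown) and the transferases Gsta4, Gstm1 and Gstt1. All 10 were found among the 34162 genes of the deposited table, and all 10 were among the 14876 genes that had enough counts to be tested. The cells were sorted in week 3 after T cells had been given to Rag-deficient mice, hosts that lack lymphocytes, at approximately 500 cells per library. The transferred cells were C57BL/6 and either CD45.1+ and wild type for the nuclear receptor CAR, or Nr1i3-/-, that is, without the gene of CAR. They were recovered from spleen, colon lamina propria (cLP) and small intestine lamina propria (siLP). The 6 groups of organ and genotype hold 3 libraries each, 18 in all. The wild type cells differ from the CAR-deficient ones by the congenic marker CD45.1 as well, so an effect of CAR and an effect of the marker cannot be told apart. The labels do not give the age of the mice or say whether each library had its own host, so a p-value here speaks of library-to-library spread, which may be technical.

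Glutathione is built from glutamate, cysteine and glycine. Glutamate-cysteine ligase, whose catalytic subunit is encoded by Gclc and whose modifier subunit by Gclm, carries out the rate-limiting step, and glutathione reductase and thioredoxin reductase spend NADPH to return oxidised glutathione and thioredoxin to their reduced forms. Activated T cells need glutathione to keep growing, and the transcription factor NRF2 (Nfe2l2) drives Gclc, Gclm, Gsr, Txnrd1, Hmox1 and several transferases in many cell types. CAR is a sensor of foreign compounds and bile acid metabolites, best known in liver, where transferase genes of the alpha and mu classes are among the genes it raises.

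The members with a string match to an NRF2-type motif near a start, and those that carry a selenium codon, are shown here. RefSeq start site windows on GRCm38.p6 (250 bases before to 50 after a start) were matched for 6 of the 10 genes, Gclm, Txnrd1, Cat, Gstm1, Gstt1 and Gpx4, in 12 windows. The core of the antioxidant response element, TGACNNNGC read on both strands, was found in 2 of the 12 windows, 1 of Gclm and 1 of Txnrd1. It was present in 12.4% of all 32851 windows. Both windows below are printed on the plus strand, which is the strand of both genes, with the match on the opposite strand in capitals. They lie at chr3:122245413-122245442 and chr10:82859104-82859133. The match starts 134 bases before the start of Gclm and 92 bases before a start of Txnrd1.
Gclm: gctcccgggcGCACCGTCAactctcacgag
Txnrd1: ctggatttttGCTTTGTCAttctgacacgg
The half-site AGGTCA, to which CAR and many other nuclear receptors bind as part of longer elements, was found in 3 of the 12 windows (1 each of Cat, Gstm1 and Gpx4) and in 16.3% of all windows. A match is a string of letters, not a bound site.

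Gpx4 and Txnrd1 are selenoproteins, in which an in-frame TGA codon is read as selenocysteine, the residue that does the chemistry. GENCODE vM21 marks such a codon in these 2 of the 10 genes. The coding strand around it is printed with the codon in capitals, which lies at chr10:80054737-80054739 in Gpx4 and at chr10:82896037-82896039 in Txnrd1.
Gpx4: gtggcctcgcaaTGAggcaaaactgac
Txnrd1: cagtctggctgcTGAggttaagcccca

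Library totals ran from 19605135 to 25436389 counts. The libraries are called a, b and c within a group by the order of their columns, and the 6 libraries a stand apart from the other 12. They had 15466 to 16128 genes with counts against 17013 to 18819, and the mitochondrial share was 3.70% to 3.98% in them and 2.23% to 3.22% in the others. Each group holds 1 of them. The deleted gene checks the labels only weakly, since Nr1i3 had 0 to 36 counts in all libraries but one. The library labelled siLP CAR-deficient a held 196 Nr1i3 counts (9.49 CPM, counts scaled to a fixed library size), which its label would not predict. Other CAR-deficient libraries held up to 29 counts and several wild type ones 0. Nr1i3 therefore does not separate the genotypes, and whether the label is wrong cannot be told. The members' siLP and averaged genotype values are given with and without this library. Markers of T cells summed to 8733 to 17944 CPM in every library, and Cd8a with Cd8b1 to at most 11.8 CPM. The T cell sum fell from library a to b to c in every group, as from 17289 to 12229 to 8733 CPM in wild type spleen. Markers of other cells were present at lower levels and differed by organ. Stromal and endothelial markers summed to 47.5 to 81.6 CPM in spleen, 104 to 1212 CPM in cLP and 67.2 to 391 CPM in siLP. Intestinal epithelial markers reached 306 CPM in cLP and 25.6 CPM in siLP, and those of macrophages, monocytes and neutrophils 188 CPM, in siLP. Erythroid markers summed to 146 to 2320 CPM in spleen and to at most 18.7 CPM in gut, while those of B and plasma cells reached 38.5 CPM and those of mast cells 4.81 CPM. In such bulk libraries, fewer cells of a type and less RNA per cell cannot be told apart.

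Per kilobase of merged exons, Gpx4 was the most abundant of the 10 genes, with a median of 139 CPM per kb over the 18 libraries (range 108 to 188). Cat (median 19.7 CPM per kb), Gsr (19.1) and Gstt1 (12.6) came next. Txnrd1 (6.66), Hmox1 (5.84), Gclc (5.67) and Gclm (3.52) lay close together, with ranges over libraries that overlapped, and Gstm1 (1.15) and Gsta4 (0.547) were lowest. With the longest coding transcript of each gene as its length the order was the same, and Txnrd1 stood at 13.0 and Gpx4 at 242 CPM per kb. The isoforms the cells used were not analysed here, and they could shift a gene such as Gclm or Txnrd1 within this order. Hmox1, Gstm1 and Gsta4 were not present in every library. Hmox1 had 0 counts in 2 libraries and Gstm1 in 6, while Gsta4 had fewer than 3 counts in 8. The genes also differed in how far replicate libraries scattered. The pooled standard deviation within a group, on the log2(CPM + 1) scale, was 0.27 for Gpx4, 0.41 for Gclc, 0.43 for Gsr, 0.57 for Cat, 0.64 for Gclm and 0.68 for Txnrd1. It was 1.15 for Gstt1, 1.23 for Gsta4, 1.67 for Hmox1 and 1.99 for Gstm1. For these 4 genes only large differences could be detected in the main test. The scatter of Gstt1 holds a shift of libraries c that is described below.

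**Figure D1:**
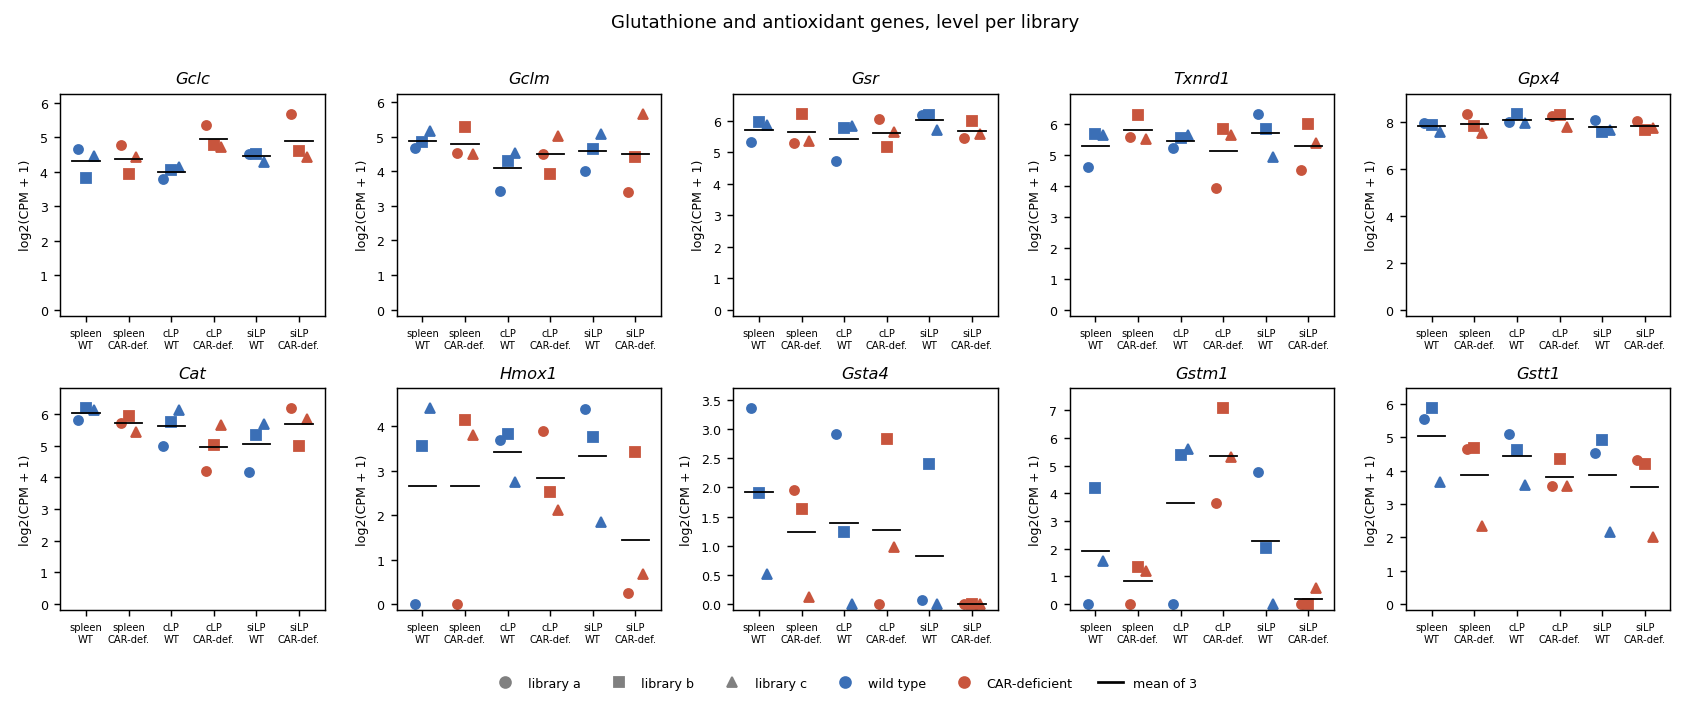
Level of each of the 10 genes as log2(CPM + 1) in the 18 libraries, by organ and genotype, with blue for wild type, red for CAR-deficient, a symbol for libraries a, b and c, and a bar for the mean of 3. Gpx4, Gsr and Gclc form narrow bands across the groups, while Hmox1, Gsta4 and Gstm1 run from 0 upwards within single groups.

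The first question was whether CAR-deficient effector cells express these genes at another level than wild type cells. In none of the 3 organs, nor in their average, did a member pass the test (edgeR's quasi-likelihood test, adjusted p under 0.05 over all tested genes). The background was 0.0% of all genes called in spleen, 0.0% in cLP, 0.0% in siLP and 0.0134% in the average over organs, so the comparison called almost nothing anywhere. At an unadjusted p under 0.05 stood 0 members in spleen (1.95% of all genes), 1 in cLP (2.44%), 2 in siLP (4.31%) and 2 in the average (5.77%). DESeq2's Wald test and limma's voomWithQualityWeights called 0 of the 10 as well. In the average over organs, 3 members lay above 0 and 7 below, with a median log2 fold change of -0.11 beside -0.01 over all tested genes.

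Gclc, the catalytic subunit of the ligase, had the smallest p of the 10 genes in the average over organs, with higher fitted values in CAR-deficient cells. In cLP the CAR-deficient libraries a, b and c stood at 39.8, 26.1 and 25.4 CPM, and their wild type counterparts at 12.9, 15.6 and 16.5 CPM. Every CAR-deficient cLP library therefore lay above every wild type one. The share of all tested genes that separate in this way, in this or another comparison, was not counted. Nothing is drawn from such a separation alone. In siLP the CAR-deficient libraries stood at 50.3, 23.3 and 20.3 CPM and the wild type libraries at 21.9, 22.0 and 18.6 CPM. There the groups overlapped, and the high value belongs to library a, the one with the high Nr1i3 count. In spleen the CAR-deficient libraries stood at 26.4, 14.2 and 20.4 CPM and the wild type libraries at 24.2, 13.1 and 20.8 CPM, which is almost the same set of values. The log2 fold change was 1.02 ± 0.40 (SE) in cLP, with a 95% interval of 0.16 to 1.88, an unadjusted p of 0.0224 and an adjusted p of 1.00 (edgeR). Over the organs it was 0.56 ± 0.23 (95% interval 0.07 to 1.05, adjusted p = 0.778). Without siLP CAR-deficient a it was 0.38 ± 0.22, and without all 6 libraries a it was 0.26 ± 0.19. An exact permutation of genotype within organ, two-sided, gave p = 0.0288 for Gclc and 0.457 after adjustment over the 40 such tests. In cLP the genotype effect on Gclc was 0.95 ± 0.57 above that in spleen, a difference that did not pass (adjusted p = 1.00).

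Gclm, the modifier subunit, did not separate by genotype in cLP, though a difference between its genotype effect and that of Gclc was not tested. The cLP levels of Gclm were 21.8, 14.1 and 31.6 CPM in the CAR-deficient libraries a, b and c. The wild type libraries had 9.79, 18.8 and 22.1 CPM. In spleen they were 22.1, 38.1 and 21.7 CPM without CAR, beside 24.3, 27.5 and 34.8 CPM with it, and in siLP 9.64, 20.1 and 49.7 CPM beside 15.0, 23.8 and 33.0 CPM. The genotypes overlapped in each organ, and the averaged log2 fold change was 0.16 ± 0.31 (95% interval -0.50 to 0.81). The ratio of Gclm to Gclc per kb, the balance of the 2 subunit messages, is given as a description, and libraries a were not tested against c. It had a median of 0.642 over the 18 libraries, and it ran from 0.115 to 0.600 in libraries a, 0.324 to 1.61 in libraries b and 0.634 to 1.46 in libraries c. Every library a lay below every library c. The lowest ratio was 0.115, in siLP CAR-deficient a, followed by the CAR-deficient cLP libraries b (0.324) and a (0.329). The lengths used scale all 18 ratios alike, so the size of a ratio depends on them and the order of the libraries does not.

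The 2 reductases showed no genotype difference that passed. Gsr, which regenerates glutathione, stood in spleen at 38.2, 74.2 and 40.6 CPM in the CAR-deficient libraries a, b and c, beside 39.1, 61.8 and 57.9 CPM in the wild type ones. In cLP its CAR-deficient levels were 65.8, 34.7 and 48.7 CPM, beside 25.6, 53.4 and 55.7 CPM, and in siLP 42.8, 62.3 and 46.9 CPM, beside 72.2, 72.7 and 51.6 CPM. All 3 pairs of groups overlapped. The averaged log2 fold change of -0.09 ± 0.21 has a 95% interval of -0.54 to 0.36. Txnrd1, the cytosolic thioredoxin reductase, was more variable. Its CAR-deficient levels in spleen were 46.2, 77.0 and 44.3 CPM, beside 23.0, 50.0 and 48.2 CPM in the wild type. In cLP they were 14.1, 55.4 and 48.6 CPM, beside 35.9, 45.4 and 48.3 CPM, and in siLP 21.9, 62.0 and 40.6 CPM, beside 79.0, 55.2 and 29.5 CPM. Library a held the lowest value in both cLP groups, in wild type spleen and in CAR-deficient siLP, and the highest in wild type siLP. The averaged log2 fold change of Txnrd1 was -0.02 ± 0.30 (95% interval -0.65 to 0.61).

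Gpx4, which removes lipid peroxides and protects T cells from ferroptosis, was the steadiest member. The CAR-deficient libraries stood at 325, 228 and 186 CPM in spleen, 307, 312 and 222 CPM in cLP and 264, 199 and 213 CPM in siLP. The wild type libraries stood at 246, 235 and 191 CPM, 252, 324 and 246 CPM, and 272, 187 and 202 CPM in the same order of organs. Its highest value over the 18 libraries was 1.75 times its lowest. The averaged log2 fold change was 0.07 ± 0.15, and its 95% interval of -0.24 to 0.38 is the narrowest of the 10 genes. Cat, the peroxisomal catalase, had fitted values of both signs, -0.33 in spleen, -0.64 in cLP and 0.58 in siLP, none of which passed. Its CAR-deficient levels were 52.3, 61.0 and 42.3 CPM in spleen, beside 55.4, 72.4 and 68.5 CPM in the wild type. In cLP they were 17.6, 31.7 and 49.1 CPM, beside 30.8, 53.6 and 69.4 CPM. In siLP they were 72.4, 31.1 and 56.4 CPM, beside 17.0, 39.3 and 50.6 CPM, with wild type library a lowest. The groups overlapped in each organ. The averaged log2 fold change was -0.13 ± 0.26 (95% interval -0.68 to 0.42), and the effect in siLP less that in cLP was 1.23 ± 0.64 (adjusted p = 1.00).

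Hmox1, the inducible haem oxygenase, was uneven within groups. In spleen the CAR-deficient libraries stood at 0, 16.8 and 13.1 CPM and the wild type ones at 0, 10.8 and 20.4 CPM, so both libraries at 0 are spleen libraries a. In cLP the CAR-deficient levels were 13.9, 4.78 and 3.33 CPM, beside 11.9, 13.1 and 5.72 CPM, and in siLP 0.194, 9.69 and 0.592 CPM, beside 20.0, 12.5 and 2.58 CPM. The genotypes overlapped throughout, and the averaged log2 fold change was -0.76 ± 0.98 (95% interval -2.84 to 1.32). Over the 18 libraries the gene most like it was C1qb, a complement gene of macrophages (Pearson's r of 0.88 on log2 CPM, a description). C1qb was at 0 in the same 2 spleen libraries a and at 0.145 CPM in siLP CAR-deficient a, and otherwise at 4.19 to 25.1 CPM. The sum of the 13 macrophage, monocyte and neutrophil markers did not follow Hmox1 in the same way. It was 42.2 CPM in spleen wild type c, where Hmox1 was highest, and 110, 77.9 and 63.3 CPM in siLP wild type c, CAR-deficient c and CAR-deficient a, where Hmox1 was at 2.58 CPM or below. The part of macrophage RNA in the Hmox1 level was not tested.

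**Figure D2:**
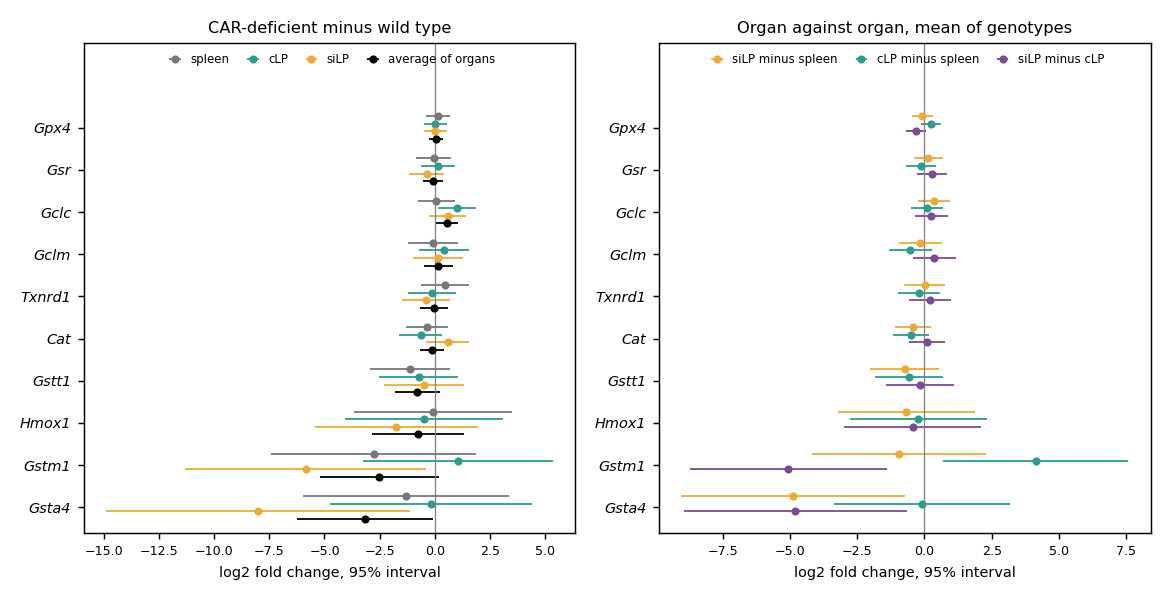
Log2 fold change of each gene with its 95% interval, on the left for CAR-deficient minus wild type cells in each organ and on average, on the right for organ against organ averaged over genotypes. The intervals widen from Gpx4 at the top to Gstm1 and Gsta4 at the bottom, and none of the points shown passed after adjustment over all genes.

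The 3 transferases had negative averaged log2 fold changes, and none passed. Gsta4, of the alpha class, which detoxifies the lipid aldehyde 4-hydroxynonenal, stood in spleen at 2.90, 2.11 and 0.0906 CPM without CAR, beside 9.30, 2.74 and 0.422 CPM in the wild type. In cLP the CAR-deficient levels were 0, 6.11 and 0.963 CPM, beside 6.58, 1.36 and 0 CPM. In siLP all 3 CAR-deficient libraries were at 0, beside 0.0451, 4.29 and 0 CPM. The siLP difference thus rests on wild type library b alone, which had 119 counts. With the floor of 3 counts in a CAR-deficient library (at most 0.145 CPM), the wild type mean of 1.45 CPM was at least 9.96-fold higher. The averaged log2 fold change was -3.15 ± 1.43 (95% interval -6.23 to -0.08, adjusted p = 0.856). This fitted value carries the siLP libraries at 0 and is no bound. On log2(CPM + 1) the averaged difference was -0.54. Its exact permutation of genotype within organ gave p = 0.31, and 0.765 after adjustment over the 40 tests.

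Gstm1, of the mu class, was high mainly in cLP libraries. In spleen its CAR-deficient levels were 0, 1.50 and 1.27 CPM, beside 0, 17.3 and 1.90 CPM in the wild type. In cLP they were 11.5, 134 and 38.9 CPM, beside 0, 40.5 and 47.9 CPM, and in siLP 0, 0 and 0.473 CPM, beside 26.2, 3.03 and 0 CPM. The genotypes overlapped in all 3 organs, and wild type cLP a, at 0, lay below every CAR-deficient cLP library. On log2(CPM + 1) the averaged genotype difference was -0.49. Its exact permutation within organ gave p = 0.638, and 0.812 after adjustment over the 40 tests. The fitted values that follow carry libraries at 0 and are no bounds. The log2 fold change was 1.06 ± 2.03 in cLP and -5.85 ± 2.58 in siLP (adjusted p = 1.00 in both), and -2.52 ± 1.27 on average (95% interval -5.21 to 0.17). The siLP effect less the cLP effect was -6.91 ± 3.23 (unadjusted p = 0.049, adjusted p = 1.00).

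Gstt1, of the theta class, lies in a cluster with Gstt2 and Gstt3 on chromosome 10 (chr10:75774115-75837424 from the start of Gstt3 to the end of Gstt2, GRCm38), so reads shared by these paralogs may have been split between them. In spleen its CAR-deficient levels were 23.9, 24.6 and 4.03 CPM, beside 45.6, 57.8 and 11.7 CPM in the wild type. In cLP they were 10.6, 19.5 and 10.6 CPM, beside 33.0, 23.7 and 10.9 CPM, and in siLP 19.1, 17.2 and 3.04 CPM, beside 22.3, 29.4 and 3.44 CPM. As groups, the genotypes overlapped in each organ. Between libraries of the same organ and column ending, Gstt1 was lower in the CAR-deficient one in 9 of 9 pairs, as were 0.968% of all tested genes, while 0.948% were higher in all 9. These pairs follow the endings of the columns and are not labelled as pairs, and they were counted after the values were seen. The averaged log2 fold change was -0.78 ± 0.49 (95% interval -1.82 to 0.26, adjusted p = 0.961). With the column ending as a replicate block it was -0.71 ± 0.28 (adjusted p = 0.486, the lowest over 24 alternative fits, which reached 1.00). The neighbours had similar values, with Gstt2 at -0.82 ± 0.25 (unadjusted p = 0.0051, adjusted p = 0.493) and Gstt3 at -0.98 ± 0.49, and neither passed. Gstt2 stood at 13.5, 51.3 and 37.9 CPM in CAR-deficient spleen, below the 78.8, 77.3 and 72.3 CPM of wild type spleen in every library. How many of all genes separate so was not counted, so nothing is drawn from it.

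The library siLP CAR-deficient a, with its high Nr1i3 count, moved some of these values. Without it the averaged log2 fold change was 0.29 ± 0.27 for Gclm, -0.06 ± 0.22 for Gsr, 0.07 ± 0.29 for Txnrd1, -0.23 ± 0.26 for Cat and 0.02 ± 0.16 for Gpx4. It was -0.58 ± 0.98 for Hmox1, -3.17 ± 1.58 for Gsta4, -2.35 ± 1.34 for Gstm1 and -0.91 ± 0.52 for Gstt1. Of these 9 genes Txnrd1 changed sign, from a value near 0, and none of the 10 members passed. Within siLP, leaving the library out moved Gclc from 0.59 to 0.06, Gclm from 0.15 to 0.55, Gsr from -0.37 to -0.27 and Txnrd1 from -0.40 to -0.10. It moved Cat from 0.58 to 0.30, Hmox1 from -1.74 to -1.20, Gstm1 from -5.85 to -5.35, Gstt1 from -0.49 to -0.86 and Gpx4 from 0.03 to -0.10, while Gsta4 stood at -8.02 with it and -8.01 without. For the neighbours Gstt2 and Gstt3 the average without it was -0.72 ± 0.24 and -0.84 ± 0.48.

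Within Gstt1, the libraries of a group split in the same way in nearly every group. Library c was the lowest of the 3 in 5 of 6 groups, and in CAR-deficient cLP libraries a and c were equal to within 0.1 CPM (10.6 CPM each). In a comparison added after these values were seen, with the column ending as a term in the model, libraries c differed from the mean of libraries a and b by a log2 fold change of -1.94 ± 0.33 (95% interval -2.66 to -1.23, adjusted p = 0.00551). Gstt1 was the 1 member of 10 called, where 6.39% of all genes were. Libraries a lay above the mean of libraries b and c in Gstt1 (0.86 ± 0.29, adjusted p = 0.0490, edgeR). Gstt1 was again the 1 member called, where 21.4% of all genes were. That mean holds the low libraries c, and library b was the highest of the 3 in 4 of 6 groups. The second call therefore does not show a separate shift of libraries a. The neighbours did not share the shift in libraries c, with 0.07 ± 0.25 for Gstt2 and 0.98 ± 0.42 for Gstt3, neither of which passed. Glrx, which encodes glutaredoxin, was the gene most like Gstt1 over the 18 libraries (Pearson's r of 0.89, a description). It was picked by that likeness in these same libraries. Its lower level in libraries c (-0.65 ± 0.09, 95% interval -0.85 to -0.44) is part of the likeness and no further evidence of the shift. What the column ending stands for is not given in the sources used here.

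**Figure D3:**
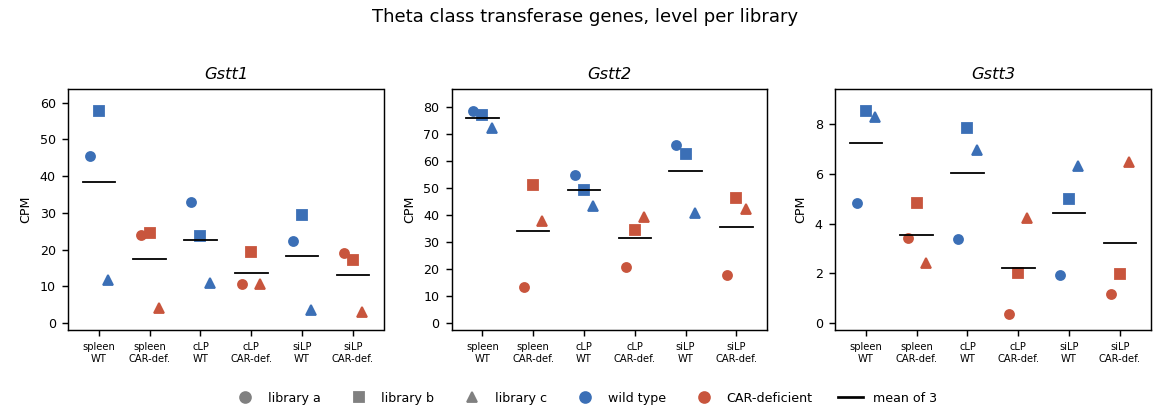
CPM of the 3 theta class transferase genes in the 18 libraries, with colours for genotype, symbols for libraries a, b and c and bars for the mean of 3. The triangles of libraries c lie at or near the bottom of each group in Gstt1 (3.04 to 11.7 CPM), which is not so in Gstt2 and Gstt3.

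The second question was whether the genes differ between organs. None of the 10 passed in siLP against spleen, where 0.847% of all genes were called in the average over genotypes, 0.188% within the wild type and 0.215% within the CAR-deficient. None passed in cLP against spleen, where 3.07% were called on average, 0.376% within the wild type and 0.484% within the CAR-deficient. In siLP against cLP, 0 members and 0.0% of all genes were called on average and within either genotype. When the genotype effects of the organs were set against each other in 3 pairs, 0 members and 0.0% of all genes passed in each. At an unadjusted p under 0.05 the averaged organ comparisons had 1 of 10 members in siLP against spleen (Gsta4; 9.65% of all genes), 1 in cLP against spleen (Gstm1; 15.0%) and 2 in siLP against cLP (both; 8.34%). The first 2 of these shares are near or below the background. DESeq2's Wald test called 0 members in each organ comparison.

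Gstm1 was the member that differed most by organ. Its log2 fold change was 4.12 ± 1.62 in cLP over spleen (adjusted p = 0.211) and -5.05 ± 1.72 in siLP against cLP (adjusted p = 0.311). Among CAR-deficient libraries those of cLP all lay above the spleen libraries and above the siLP libraries, while in the wild type the organs overlapped because cLP library a was at 0. limma's voomWithQualityWeights called the cLP excess over spleen (4.68 ± 1.44, adjusted p = 0.0435), and the fit without the 6 libraries a called the siLP deficit against cLP (-6.67 ± 1.24, adjusted p = 0.0384). The same weighted fit called Gpx4 higher in cLP than in spleen, by 0.43 ± 0.13 (adjusted p = 0.0464), where the main test gave 0.24 ± 0.18 (adjusted p = 0.623). Gsta4 was lower in siLP than in spleen by a fitted -4.88 ± 1.93 (adjusted p = 0.410), a value set by the CAR-deficient siLP libraries at 0.

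Dcn, picked from the 8 stromal and endothelial markers after its values were seen, was high in the gut libraries with the most Gstm1. This matrix proteoglycan of fibroblasts stood at 565 and 921 CPM in wild type cLP b and c, where Gstm1 was high. It stood at 0.169 CPM in wild type cLP a, where Gstm1 was at 0. In CAR-deficient cLP Dcn read 70.2, 1049 and 692 CPM, which puts library b highest, as for Gstm1. In siLP wild type a, the siLP library with the most Gstm1, Dcn was at 257 CPM, against 3.05 to 34.8 CPM in the other siLP libraries. The spleen library with 17.3 CPM of Gstm1 had 0.245 CPM of Dcn, and Dcn was at or below that in every spleen library. Of the 8 stromal and endothelial markers, 7 reached 3 counts in a cLP library of either genotype, and 4 in CAR-deficient and 3 in wild type spleen, where Pecam1, also made by T cells, gave nearly the whole sum. Elsewhere the sum of the 8 markers did not follow Gstm1. It was 48.3 CPM in the spleen library with 17.3 CPM of Gstm1. In the wild type and CAR-deficient spleen libraries a, where Gstm1 was at 0, it was 81.5 and 81.6 CPM. It was 117 CPM in siLP CAR-deficient a, where Gstm1 was also at 0. The part of stromal RNA in Gstm1 was not tested.

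**Figure D4:**
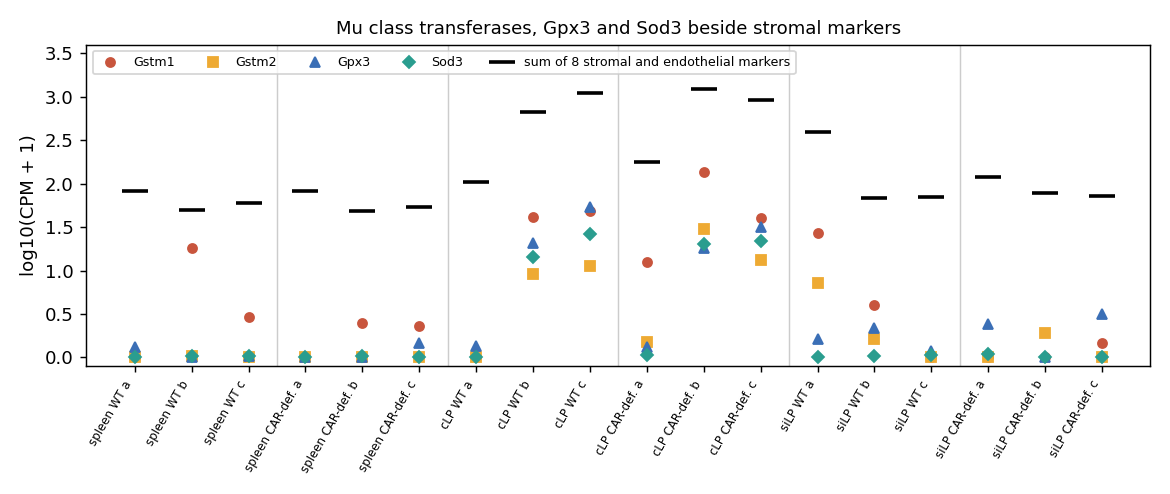
Log10(CPM + 1) of Gstm1, Gstm2, Gpx3 and Sod3 and of the summed stromal and endothelial markers in each of the 18 libraries, with grey lines between groups. Libraries b and c of both cLP groups are high in all 5 series, and siLP wild type a is high in the markers, Gstm1 and Gstm2.

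The other genes of the pathway were read from 5 lists with 100 genes, of which 89 were tested. None was called in any genotype comparison or in any difference of genotype effects. In the average over organs, 0 of 20 tested genes of glutathione supply and recycling passed (4 above 0, 16 below), as did 0 of 17 transferases, 0 of 15 peroxidases and superoxide dismutases, 0 of 15 genes of the thioredoxin and glutaredoxin system (4 above, 11 below) and 0 of 22 genes of NRF2 control and further targets (11 above, 11 below). The list medians were -0.22, -0.03, -0.09, -0.19 and -0.02 in that order, beside -0.01 over all tested genes. Transferases with the smallest p beside Gstt2 were led by Mgst2, a microsomal transferase (-1.50 ± 0.51, adjusted p = 0.613; -1.55 ± 0.57 without siLP CAR-deficient a). Its level separated the libraries a of wild type cells, with 151, 184 and 113 CPM, from all others, at 7.28 to 69.0 CPM. Txnrd2, the mitochondrial thioredoxin reductase, had -0.89 ± 0.35 (adjusted p = 0.734), and -0.77 ± 0.33 without that library.

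Between organs, 9 of the 89 genes were higher in cLP than in spleen and 0 lower, where 3.07% of all genes were called. In siLP over spleen 3 were higher and 0 lower, where 0.847% were called, and in siLP against cLP 0 passed. Slc3a2, the heavy chain of the cystine and amino acid transporters that feed glutathione synthesis, rose in both gut sites. Its spleen libraries stood at 80.0, 130 and 83.3 CPM for the wild type and 52.6, 123 and 91.8 CPM without CAR. In cLP the wild type had 413, 553 and 275 CPM and the CAR-deficient libraries 339, 408 and 277 CPM, and in siLP 288, 263 and 265 CPM stood beside 445, 246 and 269 CPM. All gut libraries therefore lay above all spleen libraries, in both genotypes. The log2 fold change was 2.01 ± 0.25 for cLP (adjusted p = 0.000285) and 1.66 ± 0.25 for siLP (adjusted p = 0.00197), and without the 6 libraries a the siLP value was 1.29 (adjusted p = 0.0518). Slc3a2 passed within wild type cells for cLP (2.08 ± 0.35) and within CAR-deficient cells for both sites (1.94 ± 0.35 and 1.85 ± 0.35). Calls within 1 genotype were lost in several fits that left out 1 library, with folds of similar size. That for wild type cLP was lost without spleen wild type a, spleen wild type c or cLP wild type b, with log2 fold changes of 1.99, 1.97 and 1.81 and adjusted p of 0.0922, 0.112 and 0.0705. That for CAR-deficient cLP was lost without spleen CAR-deficient a, spleen CAR-deficient c or cLP CAR-deficient b (log2 fold changes 1.70, 1.96 and 1.82; adjusted p 0.0969, 0.119 and 0.0946). That for CAR-deficient siLP was lost in 11 of 18 such fits, some of them without a library of another group, with log2 fold changes from 1.54 to 2.14 over the 18 fits and an adjusted p of up to 0.215 (without siLP CAR-deficient a). Slc7a11, the light chain that makes the cystine transporter with Slc3a2, stood at 1.11 to 2.44 CPM in 17 libraries and at 15.6 CPM in cLP CAR-deficient a.

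Of the 22 tested genes of NRF2 control and further targets, 3 were higher in cLP than in spleen (Maff, Osgin1 and Fth1), 2 in siLP than in spleen (Maff and Osgin1), and 0 were lower in either. Maff, a small MAF partner of NRF2, went from 0.985 ± 0.304 CPM (mean ± SD, n = 3) in the spleen of the wild type and 0.328 ± 0.338 CPM in that without CAR to 4.51 ± 1.22 and 5.84 ± 1.23 CPM in cLP and 6.39 ± 4.12 and 7.99 ± 3.23 CPM in siLP. Its log2 fold change was 3.16 ± 0.58 for cLP (adjusted p = 0.00688) and 3.63 ± 0.59 for siLP (adjusted p = 0.00433). Osgin1, an oxidative stress response gene, rose from at most 2.48 CPM in any spleen library to 11.3 to 27.3 CPM in cLP (4.08 ± 0.73, adjusted p = 0.00584), without overlap. In siLP it spanned 1.11 to 31.1 CPM (3.78 ± 0.72, adjusted p = 0.0145), and that call was lost without spleen wild type b or c or spleen CAR-deficient b or c, with log2 fold changes of 3.91, 3.93, 3.65 and 3.62 and adjusted p up to 0.0685. Fth1, the ferritin heavy chain that stores iron, rose in cLP by 0.96 ± 0.17 (adjusted p = 0.00450), from 1527 to 1795 CPM over the 6 spleen libraries to 2346 to 4220 CPM over the 6 cLP libraries. Neither Nfe2l2 nor Keap1, its inhibitor, was called in an organ comparison.

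Among peroxidases, Prdx6, which reduces phospholipid peroxides with glutathione, rose in cLP by 1.49 ± 0.24 (adjusted p = 0.00273). It read 137 to 262 CPM in the 6 spleen libraries and 394 to 895 CPM in the 6 cLP libraries. Gpx2, Gpx3, Sod3 and Gstm2 were called in cLP as well, with levels that differed widely between libraries. Gpx3, the secreted peroxidase, stood at 19.7 and 52.5 CPM in cLP wild type b and c, at 17.3 and 30.6 CPM in cLP CAR-deficient b and c, and at most 0.338 CPM in both cLP libraries a (7.13 ± 1.61, adjusted p = 0.0241). Sod3, the extracellular superoxide dismutase, read 13.3 to 25.4 CPM in the same 4 libraries and at most 0.0616 CPM in the cLP libraries a (8.92 ± 1.69, adjusted p = 0.00854). Gstm2 (9.77 ± 2.26, adjusted p = 0.0328) read 8.11 to 28.8 CPM in those 4 libraries. Gpx2, an epithelial peroxidase (5.76 ± 1.01, adjusted p = 0.00540), was highest in cLP CAR-deficient b at 27.5 CPM, the library in which epithelial markers summed to 306 CPM. Sod3 and Gstm2 were at or near 0 in every spleen library, so the sizes of their fitted fold changes depend on the prior count and are no bounds. Leaving out 1 library lost the call of Gpx3 in 7 of 18 fits (spleen wild type a, b or c, spleen CAR-deficient a or b, or library c of either cLP group), with adjusted p up to 0.0944. It lost that of Gstm2 in 10 of 18 (any spleen library, or library b or c of either cLP group), with adjusted p up to 0.112. In siLP wild type a, where stromal and endothelial markers summed to 391 CPM, Gstm2 stood at 6.22 CPM, while Gpx3 was at 0.631 CPM and Sod3 at 0. The part of stromal and epithelial RNA in these 4 calls was not tested.

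**Figure D5:**
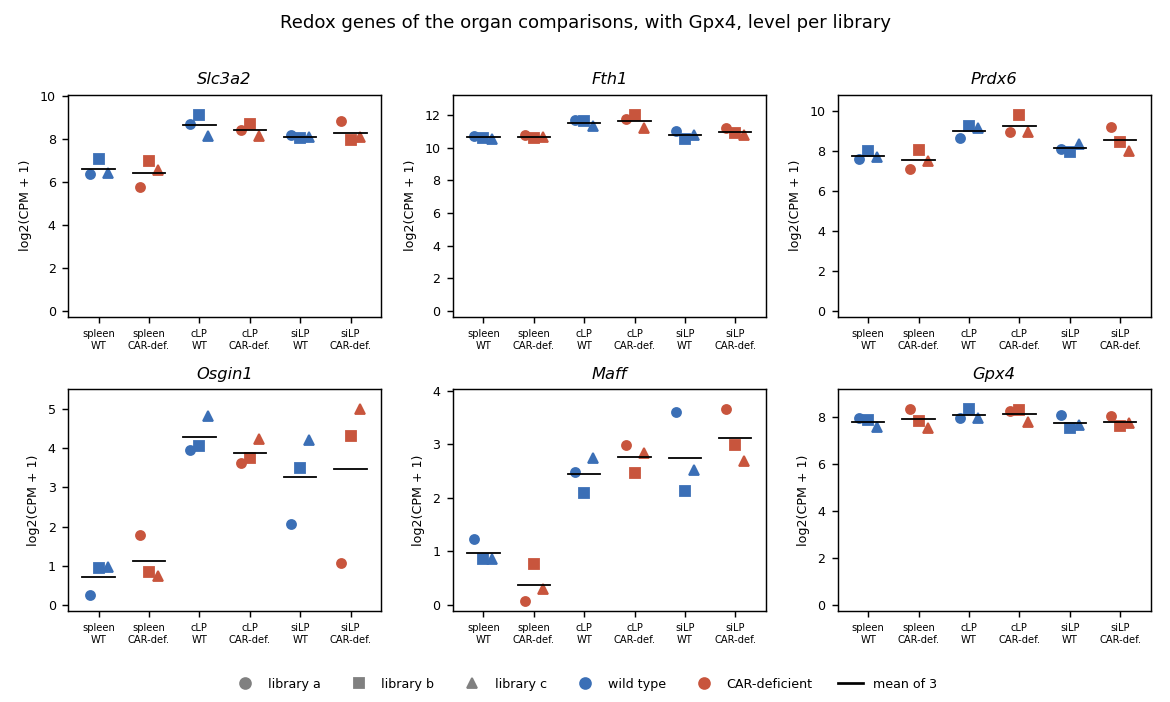
Log2(CPM + 1) of Slc3a2, Fth1, Prdx6, Osgin1 and Maff, beside Gpx4, in the 18 libraries, with colours for genotype, symbols for libraries a, b and c and bars for the mean of 3. In Slc3a2 all 12 gut libraries lie above the 6 spleen libraries in both genotypes, while Gpx4 stays within 186 to 325 CPM throughout.

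The genes most like a member over the 18 libraries, by Pearson's r on log2 CPM and as a description, were Kmt5a for Gclm (0.85), Psph for Gsr (0.85), Srsf9 for Txnrd1 (0.87) and Ergic3 for Cat (0.90). They were Xylb for Gsta4 (0.81) and Ppp2cb for Gpx4 (0.84). No member was among the 2 nearest genes of another member. Between members the highest value was 0.70, for Gsta4 with Gstt1, and the lowest was -0.54, for Gclc with Txnrd1. These values share the library differences described above, the libraries a included.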

How the data were processed

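Estimated counts per gene were taken from the deposited table, in 18 columns. Per the submitters' processing notes, Salmon, DESeq2 and the build mm10 were used; versions and roles are not given in the sources used here. Per the labels, cDNA came from the SMART-Seq v4 kit and libraries from the NEBNext Ultra II DNA kit, which keep no strand, so antisense overlaps cannot be separated. The deposited expected counts were rounded to whole numbers, and 37 further columns of that file were not used. Levels per kilobase divide CPM by the merged exon length in GENCODE vM21. All 34162 identifiers matched GENCODE vM21 symbols. Columns named CD45.1 negative were taken as CAR-deficient by elimination, and columns carry no replicate number.

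Genes were kept by filterByExpr (14876 of 34162) and tested with edgeR 4.0.16 (R 4.3.3; TMM, 6 group means, quasi-likelihood F test, two-sided, Benjamini-Hochberg adjustment over all genes per comparison, threshold 0.05) in 16 comparisons. SE is the log2 fold change over the root of F. CPM used TMM-scaled library sizes, and 3 counts, the floor, correspond to 0.108 to 0.185 CPM. The reads carry no molecular identifiers as far as the labels say, so the floor covers counting error only. Single members were also tested by exact permutation on log2(CPM + 1) within organ or genotype (40 tests). Likeness between genes used log2 CPM with a prior count of 2. Sequences came from the RefSeq promoter table (GRCm38.p6) and GENCODE vM21 transcripts. The pipeline was tested on simulated data.

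Alternatives were DESeq2's size factors, DESeq2 1.42.0, limma 3.58.1 voomWithQualityWeights, no filter, the column ending as a replicate block, each library left out, and the 6 libraries a left out. Named genes are the 10 members, from each of 5 pathway lists up to 4 genes past the threshold in a comparison or at most 2 with the smallest p, and the 2 genes most like each member; the text shortens this set, and Slc7a11, Nfe2l2, Keap1, C1qb, Dcn, Pecam1 and Gstt3 were named after their values were seen. The genes most like Gclc and Gstm1 are not reported here. Members, lists and tests were chosen with earlier results of these data known.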

Additional observations from a re-analysis of the deposited data

How the results depend on the processing

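Over the 16 comparisons and 24 alternative fits, a count of members past the threshold other than 0 arose in 2 cases: 2 members (Gstm1 and Gpx4) in cLP against spleen, averaged over genotypes, under limma's voomWithQualityWeights, and 1 member (Gstm1) in siLP against cLP, averaged over genotypes, without the 6 libraries a. The cause was not tested. With the column ending as a replicate block, 0 members passed in each comparison, as in the fits with DESeq2's size factors, DESeq2's Wald test, no filter, or each single library left out (lowest and highest count 0). The endings are column order, not labelled pairs. Same-ending libraries of different groups deviated from their group means together in 41 of 45 pairs (correlation over 0.1; median 0.20, beside -0.12 for other pairs). Of 3840 member values under alternatives, 257 changed sign, 256 of them where the main value lay within 1 SE of 0, and 86 moved by over 1 SE. With 3 libraries per group, Hmox1, Gsta4 and Gstm1 had intervals several log2 units wide, so smaller differences were not detectable.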

Other observations

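Many genes split by column ending, those of the 5 pathway lists included. Comparisons added after the data were seen had the ending as a term in the edgeR model. Of the 89 tested genes of the lists, 13 were higher and 20 lower in libraries a than in libraries b and c. Of all tested genes, 21.4% were called in that comparison. In libraries c, 6 of the 89 were higher and 6 lower than in libraries a and b, where 6.39% of all genes were called.

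Prdx1, a peroxiredoxin, stood at 2908 CPM in spleen wild type a beside 1739 and 1551 CPM in b and c, and at 3606 CPM in cLP wild type a beside 1488 and 1177 CPM. Its log2 fold change for libraries a was 0.87 ± 0.13 (adjusted p = 0.000622). Thioredoxin (Txn1) was higher in libraries a by 0.76 ± 0.13 (adjusted p = 0.00137), with 1468 CPM in spleen wild type a beside 809 and 836 CPM. Txndc17, a thioredoxin-like protein, was higher by 0.88 ± 0.10 (adjusted p = 0.000162), and its library a was the highest of 3 in all 6 groups. Sqstm1, an autophagy receptor of the NRF2 list, fell by 1.63 on the log2 scale in libraries a (SE 0.27, adjusted p = 0.000954), as did Tkt, a transketolase of the pentose phosphate path, by 1.61 (SE 0.29, adjusted p = 0.00180). In both, library a was the lowest of 3 in all 6 groups. These genes were chosen after their values were seen, and none of them was called by genotype or organ. The summed T cell markers were highest in libraries a of every group, and a link to these values was not tested.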
